A study of Mus musculus with 6 samples.

Results

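The interferon response genes described here are 42 mouse genes that belong to the response to type I or type II interferon. They were chosen by name from a written list, and all 42 had at least 1 probe on the array, 56 probes in all, out of 34741 named genes and 55681 probes. The study compared gene expression in 3 normal livers and 3 liver tumors of male C3H/HeN mice aged 74 to 75 weeks, a strain in which liver tumors arise spontaneously at high frequency in old males. The animals were second-generation (F2) controls from work on exposure of pregnant mice to arsenic, and ate the standard diet CA-1. The tumors carried a mutation of Ha-ras, a gene for a small GTPase that transmits growth signals. The RNA of each sample was labelled with 1 dye, and a SurePrint G3 Mouse array was used for each. The sources do not state whether each sample came from a different mouse, so the p-values measure the spread between these samples only. Whole pieces of tissue were used, so a smaller number of cells of a type and less RNA per cell cannot be told apart in any value below.

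Type I interferons bind the receptor chains Ifnar1 and Ifnar2, and type II interferon, interferon-gamma, binds Ifngr1 and Ifngr2. Both receptors signal through Janus kinases to STAT proteins, and type I interferon leads to a complex of STAT proteins with Irf9 that binds the interferon-stimulated response element, the ISRE, in the promoters of target genes. Interferon-gamma acts mainly through a STAT dimer on another element, the GAS. The targets include sensors of foreign nucleic acid, enzymes that block viral replication, the ubiquitin-like protein Isg15 and GTPases that attack the vacuoles of intracellular parasites. In the liver, hepatocytes, Kupffer cells and sinusoidal endothelial cells all respond to interferon.

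The ISRE core (GAAA, any 2 bases, GAAA) was searched on both strands from 250 bases before to 50 bases after the gene start, and it occurred more often in these genes than over all genes. A promoter window was at hand for 34 of the 42 genes, and 16 of them (47.1%) held a match, against 3.99% of the 27025 genes with a window. All 5 windows of the interferon-gamma-inducible GTPases held one and 0 of the 3 receptor windows did. The GAS core (TTC, any 3 bases, GAA) was found in 12 of the 34 windows (35.3%) against 9.55% of all. The matches of the 2 motifs shared bases in 1 gene, Bst2. The stretches below show the ISRE core in called genes that held it, with a called gene without it and Isg15, which was not called, for comparison. Each has 100 bases and is printed 5′ to 3′ on the strand of the gene, as RefSeq gives it for GRCm38.p6, and capitals mark the bases of ISRE core matches. Igtp, Irgm1, Bst2 and Irf2 are the genes lower in tumors that held a match, Ifngr1 is the gene with the largest difference and held none, and Isg15, picked after its values were seen, shows 3 matches in a row. The stretches lie at chr11:58199456-58199555 (plus strand) for Igtp, chr11:48871421-48871520 (minus) for Irgm1, chr8:71537545-71537644 (minus) for Bst2, chr8:46739495-46739594 (plus) for Irf2, chr10:19591849-19591948 (plus) for Ifngr1 and chr4:156200836-156200935 (minus) for Isg15.
Igtp: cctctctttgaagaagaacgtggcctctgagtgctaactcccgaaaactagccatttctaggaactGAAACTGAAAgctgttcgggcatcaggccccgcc
Irgm1: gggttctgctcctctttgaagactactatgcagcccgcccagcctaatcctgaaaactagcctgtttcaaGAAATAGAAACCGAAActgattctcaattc
Bst2: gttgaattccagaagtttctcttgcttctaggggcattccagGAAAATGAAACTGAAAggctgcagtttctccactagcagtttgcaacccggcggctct
Irf2: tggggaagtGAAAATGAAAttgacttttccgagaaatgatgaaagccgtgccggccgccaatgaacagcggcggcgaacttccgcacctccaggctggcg
Ifngr1: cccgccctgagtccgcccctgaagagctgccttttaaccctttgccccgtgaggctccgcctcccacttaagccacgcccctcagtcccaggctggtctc
Isg15: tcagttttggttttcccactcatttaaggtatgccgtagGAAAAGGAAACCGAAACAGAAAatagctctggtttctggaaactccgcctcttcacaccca

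Expression values below are the processed signal of a probe divided by the 75th percentile of its array, so that 1.0 is the level of that percentile. Between 44.7% and 48.9% of the probe spots of an array were well above background, and 0 spots were saturated. All normal livers were on slide 1 and all tumors on slide 2, with a median local background of 42 to 45 and 22 to 23, and a slide effect cannot be told apart from a tissue effect. The median log2 fold change over the 18544 genes tested was -0.13 with this scaling, -0.04 after quantile normalization and 0.03 when arrays were scaled by spike-in controls.

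Of the 42 interferon response genes, 38 were tested, and each of these was well above background on all 6 arrays. Irf4, Oas3 and Tgtp1 did not rise well above background anywhere, and Mx1 was so on 1 of 3 normal livers and 2 of 3 tumors, so these 4 were not tested. In all, 7 of 38 genes (18.4%) differed between tumors and normal livers at an adjusted p under 0.05 by limma, against 34.2% of all genes tested. Ifngr1, Iigp1 and Ifit2 rose in the tumors, 3 of 38 against 13.1% of all genes, and Irf2, Bst2, Irgm1 and Igtp fell, 4 of 38 against 21.0%. With spike-in scaling the split was 5 higher and 0 lower by limma, with 5 lower at an unadjusted p under 0.05. Both Ifngr1 and Iigp1 changed 2-fold or more, 2 of 38 (5.26%) against 14.6% of all genes. The criteria of the methods were a ratio of means of at least 2, a mean above 1.0 and an unadjusted p under 0.05 in a t-test. With that t-test run unpaired, 1 gene, Ifngr1, passed, against 9.14% of all genes. The values of tumors and normal livers did not overlap for 17 genes (44.7%), against 51.8% of all genes tested. In 5 the tumors were above and in 12 below, against 18.3% and 33.5% of all genes. The median log2 fold change of the 38 was -0.11, close to the median of all genes, with 16 positive and 22 negative values.

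**Figure D1:**
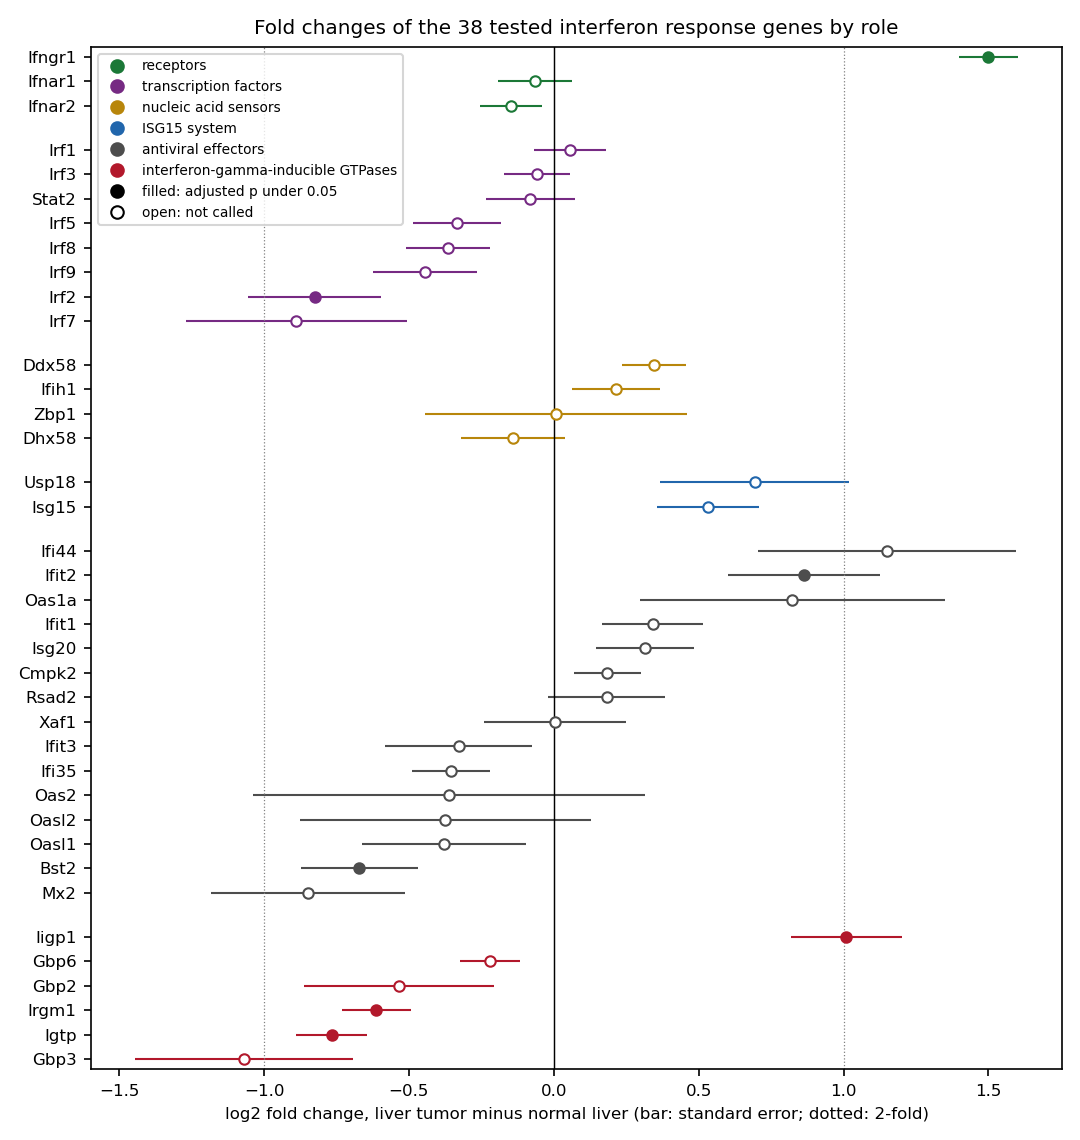
Log2 fold change (liver tumor minus normal liver) of the 38 tested interferon response genes, grouped by role, with the standard error of limma as a bar and filled points for an adjusted p under 0.05. The points spread from -1.07 for Gbp3 to 1.50 for Ifngr1, and the long bars of Oas2, Oas1a and Oasl2 show that they varied most between arrays.

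Among the receptors, the interferon-gamma receptor chain rose and the type I chains did not pass the test. Ifngr1, the ligand-binding chain for interferon-gamma (chromosome 10, 19591949 to 19610229), had expression values of 5.97, 5.74 and 6.11 in normal livers 1 to 3 and 16.0, 17.5 and 16.9 in tumors 1 to 3. Every tumor was well above every normal liver, and both groups were narrow. The log2 fold change of Ifngr1 was 1.50 ± 0.10 (SE), a 2.83-fold rise with a limma adjusted p of 0.000323. Ifnar1 had values from 3.66 to 4.25 in normal livers and from 3.52 to 4.32 in tumors, with a log2 fold change of -0.07 ± 0.13. Ifnar2 had values from 24.9 to 28.7 in normal livers and from 23.1 to 24.9 in tumors, groups that met at their edges, with a log2 fold change of -0.15 ± 0.11 and an adjusted p of 0.334 by limma. The other 2 probes of Ifnar1 gave -0.29 and -0.03 and were not called either.

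Ifngr1 was not the only receptor chain higher in the tumors. Of the 6 other receptor chains and Janus kinases, Ifngr2 and Il10rb were called higher, 0 were called lower and 3 did not pass the test. The remaining chain, Ifnlr1, was also called higher but passed the filter only through the tumors. Over all genes tested, 13.1% were called higher and 21.0% lower. Ifngr2, the signal-transducing partner of Ifngr1, had values of 4.03, 3.99 and 3.99 in normal livers and 7.67, 5.58 and 6.64 in tumors. This is a log2 fold change of 0.72 ± 0.14 with an adjusted p of 0.0115 by limma, and the groups did not overlap. The call of Ifngr2 was lost in 1 of 15 alternative settings, without a filter on dim probes (adjusted p = 0.0516 by limma). Il10rb, a chain shared by the receptors for interferon-lambda and interleukin 10, rose by 0.60 ± 0.16 on the log2 scale (adjusted p = 0.0306 by limma), a call lost in 5 of 15 alternative settings, with a highest adjusted p of 0.106 by limma. Ifnlr1, the specific chain of the interferon-lambda receptor, did not stand well above background in any normal liver and had values of 1.14, 0.907 and 1.28 in the tumors. The tumors were therefore at least 8.46-fold higher for Ifnlr1, a gene that entered the test only through the tumors, so its call is no support for a difference beyond this bound. The kinases Jak1, Jak2 and Tyk2 had log2 fold changes of 0.07, -0.02 and 0.33 and were not called.

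**Figure D2:**
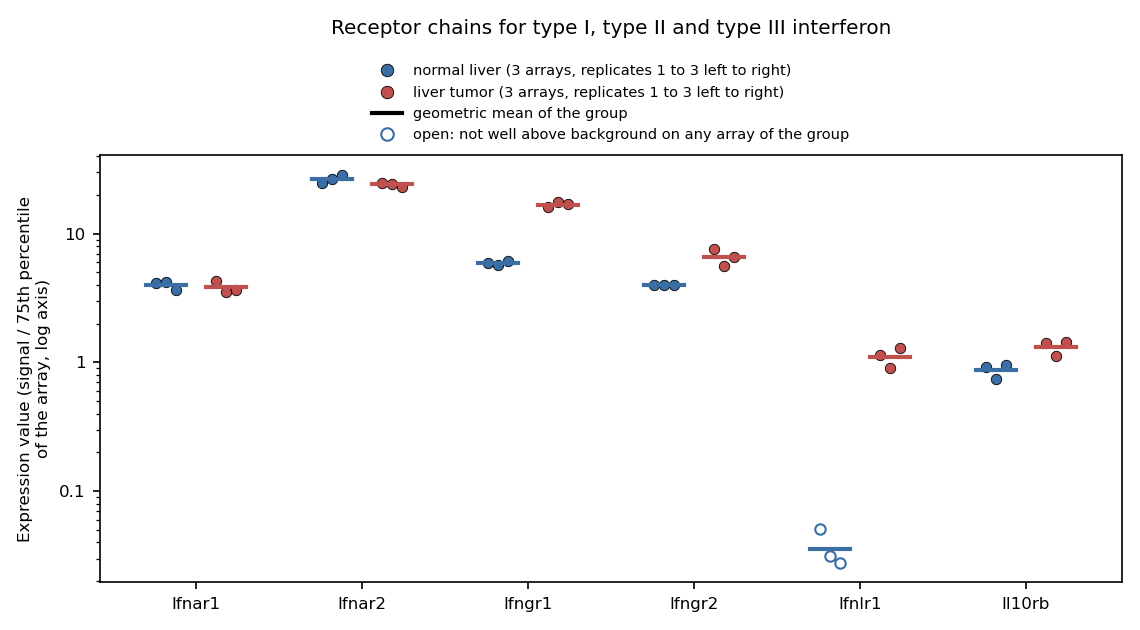
Expression values (log axis, signal divided by the 75th percentile of the array) of interferon receptor chains on each of the 6 arrays, with the geometric mean of each group as a line. Ifngr1, Ifngr2, Ifnlr1 and Il10rb lie higher in all 3 tumors than in all 3 normal livers, while Ifnar1 overlaps, and the normal liver values of Ifnlr1 are not above background.

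Of the 8 transcription factors tested, 1, Irf2, was lower in the tumors and 7 did not pass the test, against 21.0% of all genes called lower. The median log2 fold change of the 8 was -0.35. Irf2, a factor that competes with Irf1 for its sites and can repress interferon targets (chromosome 8, 46739745 to 46847458), had values of 2.87, 3.26 and 3.96 in normal livers and 1.50, 1.72 and 2.57 in tumors. The tumors were all below the normal livers, with a log2 fold change of -0.83 ± 0.23 and an adjusted p of 0.0358 by limma. This call was lost with spike-in scaling, without a filter on dim probes, and when any 1 of the normal livers, or tumor 1 or 2, was left out, with a highest adjusted p of 0.105 by limma over all alternatives.

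Irf7, the factor that amplifies type I interferon production, had the lowest fold change of the group and was not called. Its values were 2.0, 1.34 and 3.69 in normal livers and 1.13, 0.921 and 1.51 in tumors, with normal liver 3 far above the rest and overlapping groups, and the log2 fold change was -0.89 ± 0.38 (adjusted p = 0.119 by limma). Irf9, the DNA-binding partner of the STAT proteins in the type I complex, had values from 11.2 to 16.3 in normal livers and from 8.64 to 10.5 in tumors and a log2 fold change of -0.45 ± 0.18 (adjusted p = 0.101 by limma). Irf8 and Irf5, factors of myeloid cells, also had all tumors below all normal livers, with log2 fold changes of -0.37 and -0.33 that did not pass the test. Stat2, the other component of the type I complex, Irf3, which is activated by nucleic acid sensors, and Irf1 differed by less than their spread, with log2 fold changes of -0.08, -0.06 and 0.06.

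Of the 4 cytosolic nucleic acid sensors, 0 passed the limma test, against 34.2% of all genes tested, and 1 had an unadjusted p under 0.05. That gene was Ddx58, which encodes the RNA sensor RIG-I, with values of 8.64, 7.88 and 9.02 in normal livers and 10.9, 10.1 and 11.4 in tumors. All tumors were above all normal livers, the log2 fold change was 0.35 ± 0.11, and the adjusted p was 0.055 by limma. Its second, dimmer probe gave 0.56 with an adjusted p of 0.0544 by limma. Ifih1, which encodes the long-RNA sensor MDA5, and Dhx58, a regulator of both sensors, overlapped between groups, with log2 fold changes of 0.21 and -0.14. Zbp1, a sensor that can trigger cell death, spread over 2.03-fold among normal livers and 2.66-fold among tumors around a log2 fold change of 0.01.

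In the Isg15 system, Isg15 was on the edge of the test and Usp18 did not pass it. Isg15 is conjugated to proteins like ubiquitin, and its values were 12.2, 11.8 and 17.7 in normal livers and 20.1, 20.6 and 18.7 in tumors. The tumors lay close together above all normal livers, and normal liver 3 came close to the lowest tumor. The log2 fold change was 0.53 ± 0.18 with an adjusted p of 0.0592 by limma, while the second probe of Isg15 gave 0.69 ± 0.20 and was called, at 0.042 by limma. Usp18, the protease that removes Isg15 and restrains type I receptor signalling, had values of 2.60, 1.49 and 3.49 in normal livers and 4.64, 3.09 and 3.98 in tumors. These groups overlapped, and the log2 fold change of 0.69 ± 0.33 was not called (adjusted p = 0.149 by limma).

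Of 15 antiviral effectors tested, 1 rose, 1 fell and 13 did not pass the test, and the median log2 fold change was 0.00. Over all genes tested, 13.1% were called higher and 21.0% lower. Ifit2, which binds foreign RNA and blocks its translation (chromosome 19, 34550550 to 34576534), had values of 0.267, 0.155 and 0.284 in normal livers and 0.500, 0.397 and 0.357 in tumors. All tumors were above all normal livers at a low signal, with a log2 fold change of 0.86 ± 0.26 and an adjusted p of 0.0456 by limma. Bst2, or tetherin, a membrane protein that holds budding virus on the cell surface (chromosome 8, 71534255 to 71537472), had values of 51.4, 48.8 and 75.8 in normal livers and 32.2, 35.2 and 41.5 in tumors. All tumors were below all normal livers, with a log2 fold change of -0.67 ± 0.20 and an adjusted p of 0.0442 by limma. Both calls were lost whenever any 1 of the 6 arrays was left out and without a filter on dim probes. That of Ifit2 was also lost with normexp background correction, where its log2 fold change was 0.34, and with a replicate block, and that of Bst2 with quantile and spike-in scaling. The highest adjusted p-values by limma over the alternatives were 0.123 for Ifit2 and 0.193 for Bst2.

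Within the effector families, Ifit2 was the only called gene of its family and no oligoadenylate synthetase gene was called. Beside Ifit2, Ifit1 had a log2 fold change of 0.34 and Ifit3 of -0.33, and neither passed the test. In the oligoadenylate synthetase family, whose product activates an RNA-degrading enzyme, Oas1a had a log2 fold change of 0.82 ± 0.53, Oas2 of -0.36 ± 0.68, and the synthetase-like genes Oasl1 and Oasl2 of -0.38 ± 0.28 and -0.38 ± 0.50. None of these 4 was called, and for all but Oasl1 the normal livers disagreed widely. Oas1a had values of 6.91, 3.18 and 15.2 in normal livers against 10.6, 12.4 and 14.0 in tumors, a 4.78-fold range against a 1.32-fold one. Oas2 had values of 0.966, 0.242 and 1.69 in normal livers and 0.752, 0.525 and 0.473 in tumors. In both genes normal liver 2 was the lowest and normal liver 3 the highest of all 6 arrays.

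Ifi44, an interferon-induced cytoplasmic protein, had the largest fold change of the effectors and was not called. Its values were 0.613, 0.426 and 1.40 in normal livers and 2.17, 1.32 and 1.39 in tumors, so that normal liver 3 fell within the tumors, and the log2 fold change was 1.15 ± 0.45 (adjusted p = 0.0927 by limma). Mx2, a dynamin-like antiviral GTPase, had values of 2.93, 2.33 and 3.51 in normal livers and 0.955, 2.16 and 1.99 in tumors, without overlap, and a log2 fold change of -0.85 ± 0.34 (adjusted p = 0.0976 by limma). Ifi35, an interferon-induced leucine zipper protein, also had all tumors below all normal livers, at -0.35. The RNA exonuclease Isg20, Rsad2, which makes a chain-terminating nucleotide, its neighbour Cmpk2, a nucleotide kinase, and Xaf1, a pro-apoptotic protein, had log2 fold changes from 0.00 to 0.31 with overlapping groups.

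Of the 6 interferon-gamma-inducible GTPases tested, 1 was called higher and 2 lower, against 13.1% and 21.0% of all genes tested. Of the 6 tested, 5 had negative fold changes, and the median was -0.57. Igtp, an immunity-related GTPase also known as Irgm3 (chromosome 11, 58199556 to 58207592), had values of 19.6, 18.9 and 21.6 in normal livers and 12.6, 10.6 and 12.2 in tumors. The tumors were all lower, with a log2 fold change of -0.77 ± 0.12 and an adjusted p of 0.00579 by limma. Irgm1, a related regulator of these GTPases (chromosome 11, 48865245 to 48871420), had values of 10.6, 11.8 and 12.5 in normal livers and 7.91, 6.99 and 7.94 in tumors. Its log2 fold change was -0.61 ± 0.12 with an adjusted p of 0.0111 by limma, and its second probe gave -0.65. With spike-in scaling neither Igtp nor Irgm1 was called, with log2 fold changes of -0.61 and -0.46.

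Iigp1, an effector GTPase of the same family that coats parasite vacuoles and is controlled by Irgm1 and Igtp, went the other way. Its values were 13.2, 16.1 and 20.9 in normal livers and 30.7, 31.6 and 37.3 in tumors. All tumors were higher, by 1.01 ± 0.19 on the log2 scale, which is 2.01-fold with an adjusted p of 0.0102 by limma. The second probe of Iigp1 gave 1.16 with an adjusted p of 0.00206 by limma. Ifngr1 and Iigp1 were called under all 15 alternative limma settings, including each of the 6 left-out arrays.

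The guanylate-binding proteins, large GTPases that act on the same vacuoles, gave less certain values. Gbp3 had values of 1.05, 1.13 and 2.61 in normal livers and 0.767, 0.531 and 0.823 in tumors. The groups did not overlap, but normal liver 3 stood far above the other normal livers, and the log2 fold change of -1.07 ± 0.38 was not called (adjusted p = 0.0707 by limma). Gbp2 overlapped, with a log2 fold change of -0.54 ± 0.33. For Gbp6, the brighter probe A_55_P2052380 had values from 1.75 to 1.94 in normal livers and from 1.54 to 1.65 in tumors and was not called, with a log2 fold change of -0.22 ± 0.10. Its other probe, A_55_P2052385, had values of 1.09, 0.884 and 1.28 in normal livers and 0.278, 0.287 and 0.316 in tumors, a log2 fold change of -1.87 ± 0.16 with an adjusted p of 0.000719 by limma. The 2 probes thus disagree on the size of the change in Gbp6, and the Gbp, Oas, Ifit and immunity-related GTPase families hold near-identical copies that a probe may not tell apart.

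**Figure D3:**
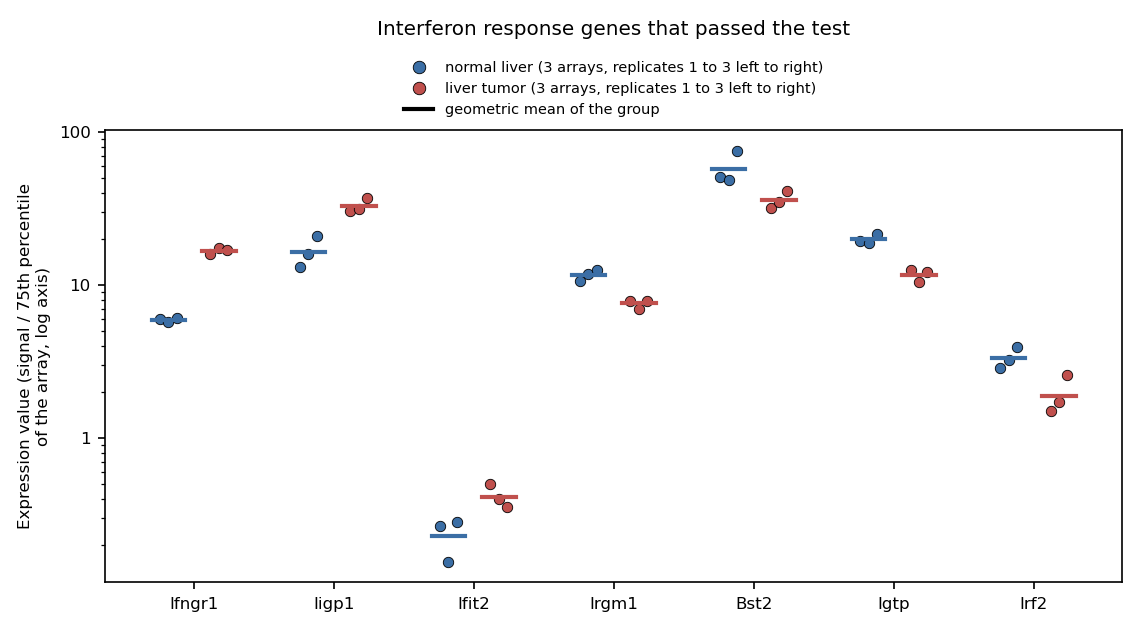
Expression values (log axis, signal divided by the 75th percentile of the array) of the 7 interferon response genes with an adjusted p under 0.05, on each of the 3 normal liver and 3 tumor arrays, with the geometric mean of each group as a line. Tumors lie above normal livers for Ifngr1, Iigp1 and Ifit2 and below them for Irgm1, Bst2, Igtp and Irf2, without overlap in any of the 7.

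With 3 arrays in each group an exact two-sided permutation test of a single gene cannot give a p below 0.1, and each of the 7 called genes gave that value. Of the 6 called genes with a promoter window, 4 held the ISRE core and 4 the GAS core, and of the 25 tested genes with a window that were not called, 10 held the ISRE core and 7 the GAS core.

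The normal livers often differed from each other in these genes in 1 order. Normal liver 2 was lowest and normal liver 3 highest among them for 20 of the 38 genes (52.6%), against 13.9% of all genes tested. Normal liver 3 had the highest of the 3 normal liver values for 32 of the 38 genes (84.2%), against 35.6% of all genes tested. Normal liver 2 had the lowest for 22 of 38 (57.9%), against 25.1% of all genes. Of the 38 genes, 9 (23.7%) spanned 2-fold or more among the normal livers, against 6.63% of all genes, and 3 (7.89%) did so among the tumors, against 9.28%. The highest tumor was tumor 1 for 13 genes, tumor 2 for 9 and tumor 3 for 16, so that no tumor led in the way normal liver 3 did. The median deviation of the 15 antiviral effectors from their own means over the 6 arrays was 0.03, -0.30 and 0.40 (log2) in normal livers 1 to 3 and lay between 0.00 and 0.07 in the tumors. Over all genes tested these medians lay between -0.07 and 0.08.

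**Figure D4:**
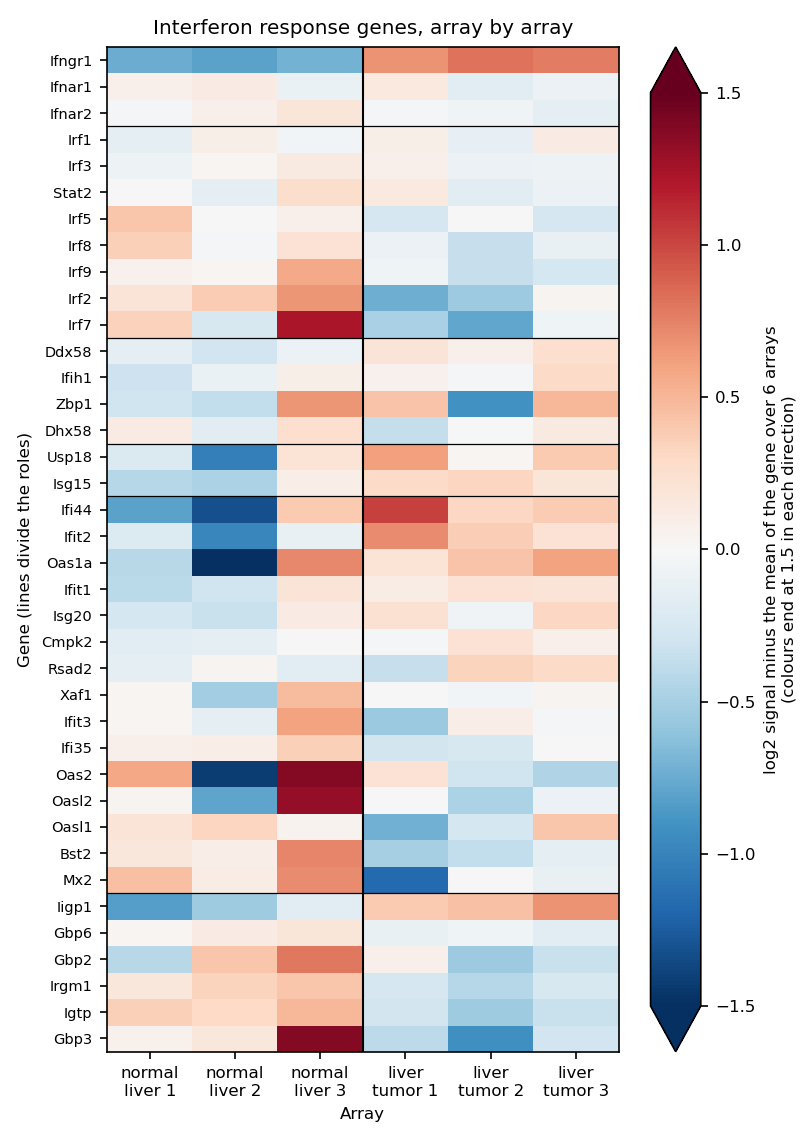
Log2 signal of the 38 tested interferon response genes on each array, as the difference from the mean of that gene over the 6 arrays (red higher, blue lower), with lines between the roles. The column of normal liver 3 is mostly red, with Oas2, Gbp3, Oasl2 and Irf7 the darkest, and the rows of Ifngr1 and Iigp1 split cleanly between the 3 normal livers and the 3 tumors.

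Leaving out any 1 of the 6 arrays changed which genes passed the test. Gbp2 was newly called lower without normal liver 1, and Oasl1 without tumor 3. With normal liver 3 left out, 6 genes were higher in the tumors, Ifngr1, Isg15, Ifit1, Ifi44, Oas1a and Iigp1, and 2 were lower, Irgm1 and Igtp. The median log2 fold change of the 38 moved from -0.11 to 0.01. Leaving out normal liver 2 instead gave 2 higher genes, Ifngr1 and Iigp1, and 2 lower, Irgm1 and Igtp, with a median of -0.19.

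The wider pathway was read from a list of 90 further genes, of which 89 had a probe and 75 were tested. Of these, 11 were called higher and 10 lower (28.0% in all, against 34.2% of all genes), and with spike-in scaling the split was 9 and 4. The 11 include Ifnlr1, which entered the test only through the tumors. Of the interferon genes themselves, 6 of 10 with a probe, among them Ifnb1 and Ifng, did not rise well above background anywhere, and 0 of the 4 tested were called by limma, with 1 at an unadjusted p under 0.05. Of 7 negative regulators of the pathway, Trim24 and Pias1 were called higher, against 13.1% of all genes tested. Their log2 fold changes were 1.03 and 0.46, and the feedback inhibitors Socs1 and Socs3 were not called. The call of Trim24 was lost in 6 of 15 alternative settings, among them each left-out normal liver, tumor 2 left out and the replicate block, with a highest adjusted p of 0.123 by limma. Among 13 sensing adaptors and kinases tested, 2 rose and 4 fell, against 13.1% and 21.0% of all genes tested. Those that fell were the endosomal receptors Tlr7 and Tlr9, at -0.67 and -0.58, their transporter Unc93b1, at -0.50, and the nuclease Trex1, at -0.60. With spike-in scaling Tlr7, Tlr9 and Trex1 were not called, with adjusted p-values by limma of 0.162, 0.214 and 0.197, nor were they without a filter on dim probes. Traf3, an adaptor that leads to type I interferon production, rose by 0.52 on the log2 scale. Trim25, a ligase that activates RIG-I, was called higher from its brighter probe, at 1.28, but its second probe gave -0.18 and was not called.

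Of 45 further interferon-inducible genes tested, 4 rose, 6 fell and 35 did not pass the test, with a median log2 fold change of -0.26. Over all genes tested, 13.1% rose and 21.0% fell. Ly6e, a surface protein that affects entry of viruses, had values of 59.0, 62.1 and 72.3 in normal livers and 163, 164 and 152 in tumors, a log2 fold change of 1.31 ± 0.12 with an adjusted p of 0.000927 by limma. Nlrc5, an activator of class I antigen presentation genes, rose by 1.14 ± 0.26. The call of Nlrc5 was lost in 3 of 15 alternative settings, with a highest adjusted p of 0.0579 by limma. Ifitm1, a membrane protein that blocks viral fusion, had values of 3.97, 3.61 and 4.50 in normal livers and 1.37, 1.43 and 1.82 in tumors, a log2 fold change of -1.39 ± 0.16 with an adjusted p of 0.00191 by limma. Ifi47, another immunity-related GTPase, had a log2 fold change of -1.01 ± 0.16, below 0 like those of Igtp and Irgm1, and Parp9 and its partner Dtx3l gave -0.89 and -0.56 and were both called. Gbp2b, a guanylate-binding protein, was called lower at a low signal, with values of 0.342, 0.209 and 0.333 in normal livers and 0.171, 0.141 and 0.136 in tumors. Its log2 fold change was -0.96 ± 0.22 (adjusted p = 0.0190 by limma). That call was lost in 5 of 15 alternative settings, with a highest adjusted p of 0.0636 by limma. Sp110, a nuclear body protein, was called from its brightest probe, at 0.67, while its other 2 probes gave 0.05 and -0.34 and were not called. Normal liver 3 was the highest normal liver for 32 of these 45 genes (71.1%) and normal liver 2 the lowest for 26 (57.8%). Over all genes tested these shares were 35.6% and 25.1%.

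The tested markers of Kupffer cells and macrophages all had negative log2 fold changes. Of the 11 such markers tested, 6 were called lower in the tumors and 0 higher, against 21.0% and 13.1% of all genes tested. Clec4f was at -1.84, Timd4 at -1.65 and Vsig4 at -1.27 (log2). The summed expression value over 12 genes was 114 to 192 in normal livers and 60.8 to 96.9 in tumors. Normal liver 3 had the highest normal liver value for 11 of the 11, against 35.6% of all genes tested. The median deviation of these markers was 1.03 (log2) in normal liver 3, against 0.35 and 0.15 in normal livers 1 and 2. Normal liver 3 was also the highest normal liver for 32 of the 38 interferon response genes. In tumors 1 to 3 the median deviation of the macrophage markers was -0.04, -0.72 and -0.67. Of the 4 interferon response genes called lower, Irf2 and Bst2 had their lowest value in tumor 1, and Irgm1 and Igtp in tumor 2. The part of the macrophage markers in these results was not tested.

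Markers of other immune cells were fewer above background. The counts below stand beside 13.1% of all genes tested called higher and 21.0% called lower. Of 6 T and NK cell markers tested, Cd4 was called higher, from a probe with a mean of 59.5 in normal livers and 184 in tumors, while the other Cd4 probe was not well above background on all arrays of either group, and Cd3e gave 0.03 and Cd8a was dim on all 6 arrays. The summed value of the 11 genes, 70.5 to 74.6 in normal livers and 145 to 249 in tumors, is made up mostly of that Cd4 probe. Of 4 B and plasma cell markers tested, Jchain was higher, at 1.60, and Mzb1 was called higher but was well above background in 1 of 3 normal livers and 3 of 3 tumors and so entered the test only through the tumors, while Ms4a1, which defines B cells, was well above background on 1 array of each group. Of 4 dendritic cell markers tested, Zbtb46 and Klk1 were higher. The sums over 9 genes, 223 to 251 and 237 to 275, are made up mostly of 1 Siglech probe, which was not called, while another Siglech probe was called lower, at -2.32, and Xcr1 and Clec9a were dim on all 6 arrays. Of 5 neutrophil markers tested, 0 were called by limma and 1 had an unadjusted p under 0.05, and the sums over 7 genes, 149 to 171 and 133 to 184, are made up mostly of the Csf3r probe. Of 7 endothelial markers, Stab2 and Clec4g were called lower, Clec4g at an adjusted p of 0.0496 by limma. The sums over the 7 genes were 105 to 118 in normal livers and 80.5 to 89.9 in tumors. The other 2 Stab2 probes gave 0.09 and 0.02 and were not called. Lyve1 went the other way, at 1.50, and was not called (adjusted p = 0.0913 by limma). Pecam1, Kdr, Cdh5 and Vwf gave -0.008, -0.003, 0.14 and -0.54 and were not called. The median of the 7 endothelial markers was -0.008. The part of these markers in the interferon results was not tested.

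Hepatocyte genes were bright in both groups. Alb was at -0.06, Ttr at -0.02 and Hnf4a at 0.16 (log2), none of them called. Of the 10 hepatocyte genes, Apoa1 was called higher and Tat, Cps1 and Ass1 lower in the tumors, against 13.1% and 21.0% of all genes. The summed value of the 10 genes was 8302 to 9008 in normal livers and 7861 to 8225 in tumors.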

How the data were processed

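Total RNA of 3 normal livers and 3 liver tumors was hybridised to 1-colour arrays. The deposited intensity is the processed signal of Feature Extraction, which is background subtracted and spatially detrended. The file headers give version 10.7.3.1, and the submitters' processing notes name 12.0.3.1. The authors also deposited a ratio of this signal to the 75th percentile of each array, made in GeneSpring, which served as an alternative.

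Processed signals were divided by the 75th percentile of all spots of the array and put on the log2 scale. Control and outlier spots were left out and spots of a probe averaged. A probe had to be well above background in every array of 1 group or both, which 24898 of 55681 were, and these were compared by limma 3.58.1 in R 4.3.3 (lmFit and eBayes, two-sided, Benjamini-Hochberg over all probes, threshold 0.05). A gene was represented by its brightest probe, with percentages given over 18544 genes. Printed expression values are linear, and fold changes are on the log2 scale. Where a group was not above background, the fold is a bound against the higher, per array, of the probe's own signal and the dimmest signal called well above background. In simulated data with 200 of 24886 probes changed, 146 were called and 12 others were called falsely. Tables were made in Python 3.11.15 (numpy 2.4.6, pandas 2.3.3, scipy 1.17.1) and figures with matplotlib 3.10.9.

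Probe names came from RefSeq annotation (GRCm38.p6) by accession for 27235 probes, symbol for 3581 and synonym for 565, and the design's name was kept for 24300. Promoters are RefSeq windows of 300 bases, found for 34 of 42 genes.

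The members, the gene lists and the markers were chosen with earlier results of these data known. Per-array values were to be given for called members with a change of 2-fold or more or opposite to their role group. They were also given for the other called genes and for uncalled genes with large or variable values, chosen after the values were seen. Of the further pathway genes, up to 15 called ones with the largest change were to be named, and Pias1, Traf3, Unc93b1, Dtx3l and the uncalled ones named beside them were added after their values were seen. For the B and plasma cell list, 1 marker and the summed value that holds it are not reported here. The number of arrays limits the precision. As alternatives, the background was corrected by normexp (offset 50), arrays were scaled by quantiles or by spike-in probes, 2 other filters on dim probes were set, and the deposited ratios, a replicate block, a variance trend and averaged probes were tried, as were each array left out in turn, a 2-fold minimum and the methods' t-test.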

Additional observations from a re-analysis of the deposited data

How the results depend on the processing

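The 7 called genes kept their direction under all alternatives run. Igtp was not called with spike-in scaling, and Irgm1 neither there nor without a filter. Irf2, Ifit2 and Bst2 were called in 8, 6 and 6 of 15 alternatives. Counts of interferon response genes are given as higher and lower in tumors, against 3 and 4. They were 5 and 3 with quantile normalization, 5 and 0 with spike-in scaling (5 lower at an unadjusted p under 0.05), 2 and 1 without a filter, 5 and 4 with probes above background on all 6 arrays, 5 and 5 with a variance trend, 5 and 5 with the mean of a gene's probes, 2 and 0 with a 2-fold minimum, and 2 to 6 and 2 to 4 with 1 array left out. The methods' t-test with its 2-fold and level criteria gave 1 and 0 unpaired before and after adjustment, and 1 and 0 paired before and 0 and 0 after it. Normexp gave 4 and 4, with Ddx58 and Isg15 called higher and Ifit2 not called, and the deposited ratios gave 3 and 4. Ddx58 and Isg15 were also called higher with quantile normalization, a variance trend and the mean of a gene's probes. The same held with probes above background on all 6 arrays.

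For the further pathway genes, against 11 and 10, counts were 9 and 4 with spike-in scaling, 3 and 3 without a filter, 5 and 2 with a 2-fold minimum, and 6 to 10 for both with 1 array left out. The methods' t-test gave 4 and 2 unpaired, 2 and 2 after adjustment, 3 and 2 paired, and 0 and 0 after adjustment. Over all genes, 2432 higher and 3901 lower became 2361 and 1573 with spike-in scaling and 1506 and 1571 without a filter. The causes were not tested beyond what these settings construct. The members' median lay between -0.19 and 0.04 over all alternatives, and was above 0 with quantile and spike-in scaling and without normal liver 3.

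The replicate numbers are not stated to pair samples, although the paper's statistics section names a paired t-test for 2 groups. Deviations of same-numbered samples correlated at 0.07, 0.13 and 0.05, and normal liver 3 correlated best with tumor 1. With a replicate block, 2 members were higher and 6 lower, and 9 and 11 further genes. Probes near background, such as those of Mx1 and Ifit2, limit what low genes can show.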
